A study of Mus musculus with 6 samples.

Results

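Cytosolic ribosomal proteins are the proteins of the 80S ribosome outside mitochondria: the 60S (large) subunit proteins named Rpl and the 40S (small) subunit proteins named Rps. They were described here in LSK cells, the lineage-negative, Sca1-positive, cKit-positive fraction of bone marrow that holds haematopoietic stem cells and multipotent progenitors. A gene was a member when its symbol was Rpl or Rps followed by a number, optionally with a, x, l or al and a final digit, or was Rplp0, Rplp1, Rplp2 or Rpsa; symbols ending in -ps and the Rps6k kinases were left out. This gave 88 of the 38926 rows of the table, 52 of the large and 36 of the small subunit. RNA sequencing was done on 6 libraries from femur and tibia marrow of untreated C57BL/6 mice 8 to 12 weeks old: 3 were labelled as wild type (WT), and 3 as double knockout (KO) for Drd2 and Drd3, the genes of the dopamine receptors D2 and D3. The labels do not name a Cre, a promoter or the exons removed, and they do not say whether a library is 1 mouse or a pool, so p-values measure only the spread between these libraries.

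Each ribosome carries 1 copy of almost every ribosomal protein, so cells make these proteins in near-equal numbers. Their mRNAs mostly begin with a 5' terminal oligopyrimidine (TOP) tract, a C followed by a run of pyrimidines, through which mTOR and the RNA-binding protein LARP1 control their translation together. In blood-forming cells the dose of single ribosomal proteins matters: loss of 1 copy of Rps19 and of several others causes Diamond-Blackfan anaemia, and loss of 1 copy of Rps14 contributes to the anaemia of the 5q- syndrome. Ribosomal protein genes have also left very many processed pseudogenes, intronless copies made from their mRNAs, in mammalian genomes.

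Near-identical copies bear on several of the values below, so the sequences come first. By alignment of the members' coding sequences to the GENCODE M21 transcripts (build GRCm38, the same assembly as the mm10 named in the submitters' processing notes), 571 other genes were at least 95% identical over at least 80% of a coding sequence. They belonged to 78 of the 84 members with a coding sequence, and 405 of them had a row of their own in the table. The Rps3a family is shown because 3 of its rows met the symbol rule: Rps3a1 (chr3:86137940-86142702, minus strand), the protein-coding gene, and Rps3a2 (chr14:88123017-88123808, minus strand) and Rps3a3 (chr13:108670603-108671397, plus strand), both annotated as processed pseudogenes. Over the coding sequence Rps3a2 differed from Rps3a1 at 4 of 792 bases and Rps3a3 at 9 of 795. The stretch from coding position 469 to 668, counted from the A of the start codon and read 5' to 3', holds the most differences. Capitals mark the bases that differ.
Rps3a1: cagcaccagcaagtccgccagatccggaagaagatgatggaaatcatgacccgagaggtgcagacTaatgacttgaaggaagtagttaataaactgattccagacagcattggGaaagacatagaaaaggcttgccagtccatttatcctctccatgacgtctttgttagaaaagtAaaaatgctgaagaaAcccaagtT
Rps3a2: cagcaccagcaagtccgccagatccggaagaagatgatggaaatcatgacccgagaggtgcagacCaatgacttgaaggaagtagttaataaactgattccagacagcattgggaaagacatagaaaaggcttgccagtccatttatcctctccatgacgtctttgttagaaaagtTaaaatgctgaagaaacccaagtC
Rps3a3: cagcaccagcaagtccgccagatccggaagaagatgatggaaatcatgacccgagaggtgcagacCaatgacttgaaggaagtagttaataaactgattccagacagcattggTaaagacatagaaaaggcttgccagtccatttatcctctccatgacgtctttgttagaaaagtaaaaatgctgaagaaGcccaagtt

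Rplp0, the P stalk protein that anchors Rplp1 and Rplp2, and Rps7 (chr12:28630854-28635953, minus strand), a small-subunit protein, are shown beside the copies whose rows differed most between the groups. Rplp0 lies at chr5:115559467-115563727 on the plus strand. Its processed pseudogene Gm8730 (chr8:102864845-102865798) differs at 12 of 954 aligned coding bases, and Gm9625 (chr13:67810246-67811200) at 24 and by 1 inserted or deleted base. Gm6472 (chrX:152909505-152910155), a transcribed processed pseudogene, differs from Rps7 at 3 of 585 bases. The lines give coding positions 184 to 283 of Rplp0 and 24 to 123 of Rps7, again with the differing bases in capitals.
Rplp0: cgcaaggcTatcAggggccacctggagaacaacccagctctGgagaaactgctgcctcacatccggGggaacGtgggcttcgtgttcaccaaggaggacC
Gm8730: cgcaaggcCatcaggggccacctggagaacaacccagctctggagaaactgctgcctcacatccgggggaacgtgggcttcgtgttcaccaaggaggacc
Gm9625: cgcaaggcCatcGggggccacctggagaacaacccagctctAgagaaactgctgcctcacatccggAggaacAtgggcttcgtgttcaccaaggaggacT
Rps7: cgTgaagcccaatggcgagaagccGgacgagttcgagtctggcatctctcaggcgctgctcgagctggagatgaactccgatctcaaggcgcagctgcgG
Gm6472: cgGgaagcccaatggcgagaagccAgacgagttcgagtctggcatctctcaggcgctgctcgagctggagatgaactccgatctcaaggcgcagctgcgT

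The libraries held 5245206 to 7148136 reads, recovered from the deposited FPKM values (reads per kilobase of gene, scaled for depth by the authors), with the KO3 library at the low end. Drd2 was at 0 FPKM in every library. For Drd3 the WT libraries also read 0, whereas KO1, KO2 and KO3 read 1.62, 3.08 and 3.04 FPKM, which goes against the label; the labels do not say which exons were removed. The Y-linked Ddx3y was at 0 in KO1 and KO3 and at 12.5 to 15.1 FPKM in the other 4 libraries, so sex and genotype are partly confounded. Igkc, an antibody light chain, was at 3182 and 1173 FPKM in KO1 and KO3 and at 1.98 to 4.93 FPKM elsewhere. The gate markers Kit (82.5 to 150 FPKM) and Ly6a, which encodes Sca1 (110 to 161 FPKM), were present in every library. The summed FPKM of 18 erythroid markers was 1652 to 2130 in WT and 2758 to 4754 in KO, and 9 of the 15 tested passed the test as higher, where 5.48% of all genes did; their part in the results below was not tested. Fewer cells of a type and less RNA per cell cannot be told apart in such bulk samples.

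Ribosomal protein mRNAs were abundant. Of the 88 members, 86 were above 0 in at least 1 library and 83 had a mean of at least 1 FPKM and were tested. Rpl10l and Rps12l2 were at 0 throughout, and Rpl3l, Rpl39l and Rps12l1 stayed under the mean of 1 FPKM. The median of the tested members was 166 FPKM, against 10.4 FPKM over all 11371 genes tested, and 81 of the 83 lay above the latter. In the WT libraries the members made up 5.83, 6.24 and 6.56% of all FPKM. In KO they made up 5.91, 6.22 and 5.36%, so KO1 and KO2 lay within the range of the WT libraries and KO3 below it.

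The highest member in FPKM was Rpl32, a large-subunit protein, with a mean of 1789 over the 6 libraries. In Rpl32, the WT libraries read 1653, 1872 and 1935 FPKM and the KO libraries 1945, 1782 and 1548. The lowest tested were Rpl24 (6.95), Rps15a (7.75) and Rpl7a (15.8). Between Rpl32 and Rpl24 the levels spanned 257-fold, although the proteins are used in equal numbers. FPKM divides by the length of the whole gene model, and the length implied by the values exceeded the coding length by a median of 3.18 times and by up to 15.9 times (Rps15a, 6262 bases for 393 coding bases). When reads were divided by coding length instead (reads per kilobase of coding sequence per 1000000 reads), Rpl41, the shortest member with 78 coding bases, became the highest at 5267, followed by Rpl32 at 2291 and Rps29 at 2212. Rps15a came to 125, above Rpl7a at 35.5 and Rpl24 at 36.8. The span was 148-fold among the 81 members with a coding sequence, and the ranks on the 2 scales had a Spearman correlation of 0.78 across genes, which are not independent replicates and share the same reads.

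**Figure D1:**
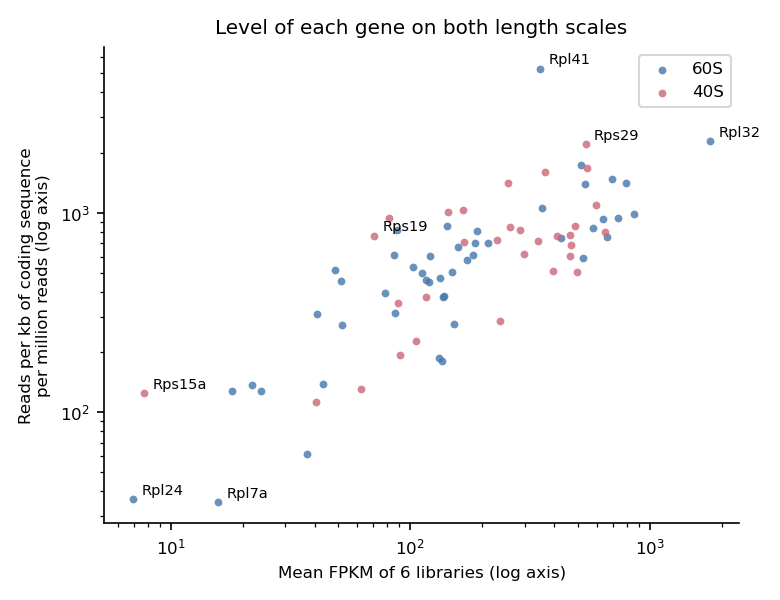
Mean level of 79 tested ribosomal protein genes over the 6 libraries, in FPKM (x, log axis) and in reads divided by coding length and depth (y, log axis); each point is a gene, blue for 60S and red for 40S. Rpl41 stands highest on the coding scale although its FPKM of 348 lies far below the 1789 of Rpl32, and Rpl24 and Rpl7a are low on both. The coding scale divides reads from the whole gene model by coding length alone, which raises genes such as Rpl41.

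Copy rows lay above the gene itself in FPKM for some of the low members. In 19 cases a near-identical copy had a higher mean FPKM than the coding gene. The row of Rps6-ps4 stood at 638 FPKM and that of Rps6, the S6 kinase substrate of the small subunit, at 106, with identical aligned bases (100%). Rps19-ps6 stood at 469 and Rps19 at 70.9, Gm11703 at 304 and its parent Rpl21 at 17.9, and Rps15a-ps7 at 68.0 and Rps15a at 7.75. Part of this order comes from length, as FPKM divides by a gene model of 4685 bases for Rps19 and 6262 for Rps15a. In reads, Rps19 lay above Rps19-ps6 in every library (1553 to 2680 against 953 to 1678). Rps15a likewise lay above Rps15a-ps7 (188 to 409 against 81 to 210). Rps6-ps4 lay above Rps6 in reads as well (2621 to 3890 against 849 to 1307). Reads from a copy and from its parent cannot be told apart where the sequences are identical, so the levels of these members are uncertain. Summed over all members, the copies held 9.43 to 9.59% of the reads of members plus copies in WT and 10.6 to 11.3% in KO. Rps3a2 and Rps3a3 were counted in both sums, as members and as copies of Rps3a1. The KO mean share exceeded the WT mean by 4.78 to 20.3 percentage points in the families of Rps3a1, Rplp0, Rps7, Rpl34, Rps13 and Rpl30. In every other family the difference lay between -3.43 and 3.10.

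No ribosomal protein gene passed the test between KO and WT. In limma on log2(FPKM + 1), with Benjamini-Hochberg adjustment over all tested genes, 0 of 83 members had an adjusted p under 0.05, where 10.9% of the genes tested did (5.48% higher and 5.43% lower in KO). At an unadjusted p under 0.05 there were 10 members, 8 lower and 2 higher in KO, or 12.0%, where 27.5% of all tested genes lay under that value. With voom on the recovered reads, 2 members were called where 13.8% of all genes were: Rpl7l1 higher and Rps3a1 lower. The groups did not overlap for 11 members, 9 with KO lower and 2 with KO higher, 13.3% of those tested, against 32.8% of all genes (16.6% lower and 16.2% higher).

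Most members lay close to no difference. The log2 fold change was within 0.25 of 0 for 71 of 83 members (85.5%), against 55.6% of all genes tested. The 95% interval lay inside ±0.5 for 68 members and inside ±1 for 81, so for these differences beyond those sizes are outside the interval. Members were below 0 in 64 cases and above in 19, with a median of -0.07, against -0.00 over all tested genes. The large subunit had a median of -0.09 over 49 tested genes and the small subunit -0.06 over 34.

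**Figure D2:**
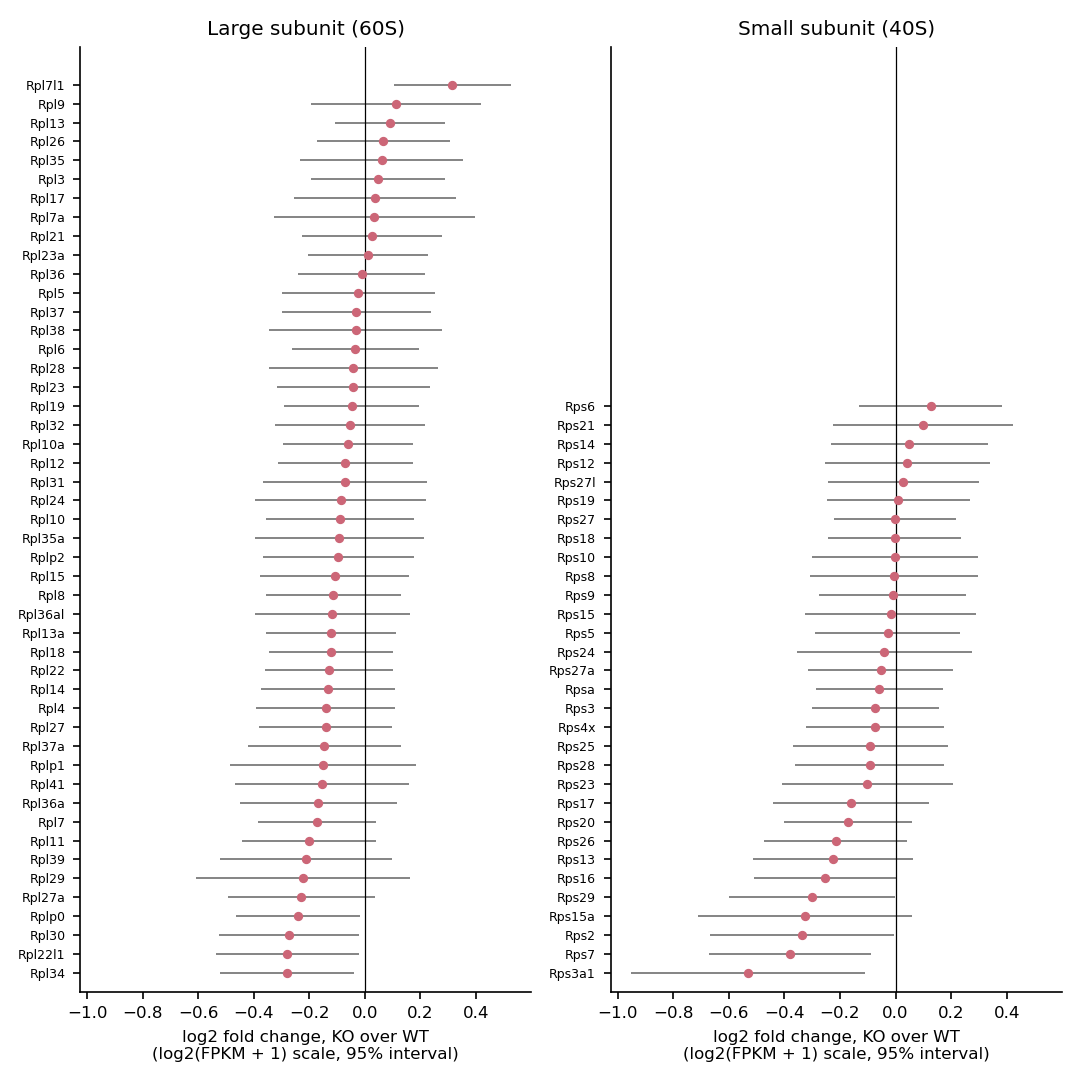
log2 fold change of KO over WT on the log2(FPKM + 1) scale (x) for 48 large-subunit and 31 small-subunit genes (y), with 95% intervals from limma; the rows of Rps3a2 and Rps3a3 are not drawn because their values would stretch the axis. Most intervals include 0, with Rpl7l1 the highest and Rps3a1 the lowest.

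The shift below 0 followed 1 library. KO3 was the lowest of the 6 libraries in 69 of the 83 members (83.1%), against 19.5% of all tested genes. In KO3 80 of the 83 lay below the mean of the WT libraries, but in WT1 81 did, so that count is not particular to KO3. Relative to the WT mean, the median member stood at -0.27 in KO3, at -0.02 in KO1 and at 0.06 in KO2. The WT libraries themselves ran from -0.12 in WT1 to 0.11 in WT3. The median over all tested genes stayed between -0.01 and 0.01 in each of the 6 libraries. Without KO3 the members' median was 0.02, with 50 of 83 above 0, so its sign rested on that library, which also had the fewest reads; the part of depth was not tested. With KO2 as the lone KO library, the one with Y-linked transcripts like WT, the median was 0.06.

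**Figure D3:**
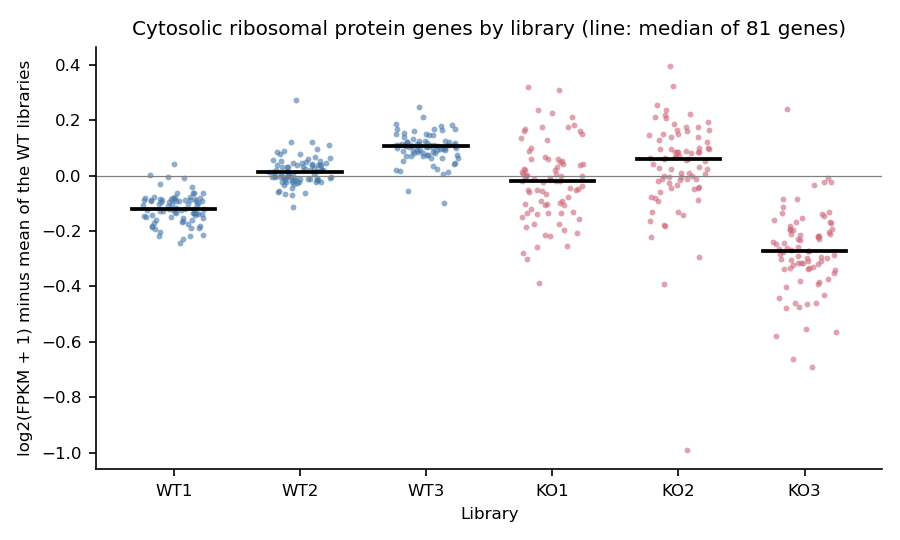
Difference of log2(FPKM + 1) from the mean of the WT libraries (y) in each library (x) for 81 ribosomal protein genes, Rps3a2 and Rps3a3 left out; points are genes and black lines medians. KO3 stands lowest with a median near -0.27, and KO1 and KO2 lie between WT1 and WT3.

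The Rps3a rows differed most between libraries. Rps3a1, a small-subunit protein, read 709, 743 and 820 FPKM in WT and 686, 380 and 548 in KO (log2 fold change -0.53 ± 0.19, SE; adjusted p = 0.10, limma). Its pseudogene row Rps3a3 read 2.23, 2.18 and 2.42 in WT and 4.51, 295 and 77.1 in KO (3.94 ± 1.11; adjusted p = 0.053, limma). Rps3a2 read 15.03, 17.2 and 22.6 in WT and 14.5, 126 and 42.3 in KO (1.21 ± 0.59; adjusted p = 0.22, limma). KO2, the library with the least Rps3a1, had the most of both copies, KO3 was second in each, and KO1 lay near WT. The copies held 2.15 to 2.70% of the family's reads in WT and 2.44, 49.5 and 16.2% in KO1, KO2 and KO3. Summed over the gene and its copies, and expressed per length of Rps3a1, the family read 724, 761 and 842 FPKM in WT and 704, 752 and 654 in KO. The difference of the sum was -0.14 ± 0.10 (adjusted p = 0.40, limma), where the gene's own row gave -0.53. KO1 and KO3 lacked Y-linked transcripts and KO2 did not; the part of sex was not tested. Without KO1, Rps3a1 (-0.73; adjusted p = 0.032), Rps3a2 (1.96; adjusted p = 0.022) and Rps3a3 (5.54; adjusted p = 0.00057) passed the limma test. None of these rows passed when any other single library was left out. KO1 was the KO library near WT, so leaving it out favours a pass, and these p-values are no support on their own.

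Rplp0 and its copies had the same arrangement in every KO library. Rplp0 read 810, 895 and 889 FPKM in WT and 725, 788 and 683 in KO, with no overlap (-0.24 ± 0.10; adjusted p = 0.15, limma). Gm8730, chosen here after its values were seen, read 3.58, 4.13 and 5.06 in WT and 162, 109 and 59.0 in KO (4.30 ± 0.30; adjusted p = 0.00011, limma). Gm9625 read 0.67, 0.89 and 0.17 in WT and 74.0, 49.8 and 25.9 in KO (4.92 ± 0.34; adjusted p = 9.6e-05, limma). Its WT mean of 0.58 FPKM is under the minimum of 1 FPKM, so it was tested only because it was high in KO, and its p is no support on its own. Copies held 0.37 to 0.38% of the family's reads in WT and 17.0, 11.3 and 7.29% in KO. The family sum gave -0.06 ± 0.11 (adjusted p = 0.75, limma). The other P stalk members, which reach the stalk through Rplp0 and recruit elongation factors, stood at -0.15 ± 0.15 (Rplp1) and -0.10 ± 0.12 (Rplp2).

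Rps7, Rpl34 and Rpl30, at an unadjusted p under 0.05, and Rps13, at 0.11, also had copies that were higher in 1 or more KO libraries. Rps7 read 490, 516 and 562 FPKM in WT and 437, 447 and 330 in KO (-0.38 ± 0.13; adjusted p = 0.094, limma), and its copy Gm6472 read 32.9, 37.4 and 48.6 in WT and 89.3, 109 and 142 in KO (1.49 ± 0.18; adjusted p = 0.0021). Both rows separated the groups, in opposite directions. The family sum of Rps7 gave -0.21 ± 0.11. Rpl34, a large-subunit protein, read 148, 161 and 183 in WT and 125, 146 and 134 in KO, while its copy Gm10154 was listed at 0 in all WT libraries and in KO3 and at 44.2 and 23.3 in KO1 and KO2. The family sum of Rpl34 gave -0.17 ± 0.11, against -0.28 ± 0.11 for its own row. Rpl30, a large-subunit protein, had a copy, Gm12191, at 60.7 FPKM in KO2 and at 0.49 to 2.30 in the other 5 libraries. Rps13-ps1, a copy of the small-subunit gene Rps13, read 1.49, 1.27 and 3.87 in WT and 3.61, 44.4 and 50.7 in KO (2.87 ± 0.79; adjusted p = 0.047, limma).

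Most copies did not differ in this way. Of the 133 copy rows tested, 7 passed the limma test, 4 higher and 3 lower (5.26%, against 10.9% of all genes), with a median of -0.03. The 3 lower were Gm15454 (a copy of Rpl29, from 21.6 to 12.7 FPKM in the group means), Gm9493 (of Rps7, 12.6 to 3.998) and Gm5453 (of Rpl27a, 21.0 to 13.7). With every member summed with its copies, 0 of 81 rows passed, where 11.1% of the 11238 rows of that fit did. An unadjusted p under 0.05 was found for 3 of them in limma, against 9 of the same 81 as single rows. Those 3 were Rpl7l1, Rpl22l1 and Rps2. Adding copies that are higher in KO to a gene that is lower in KO moves the sum upward by construction. The smaller count is therefore no support on its own. The strain background of the KO mice beyond the label C57BL/6 and the sequence of these loci in them were not examined here, and the relation between the rows of a gene and of its copies was not tested.

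**Figure D4:**
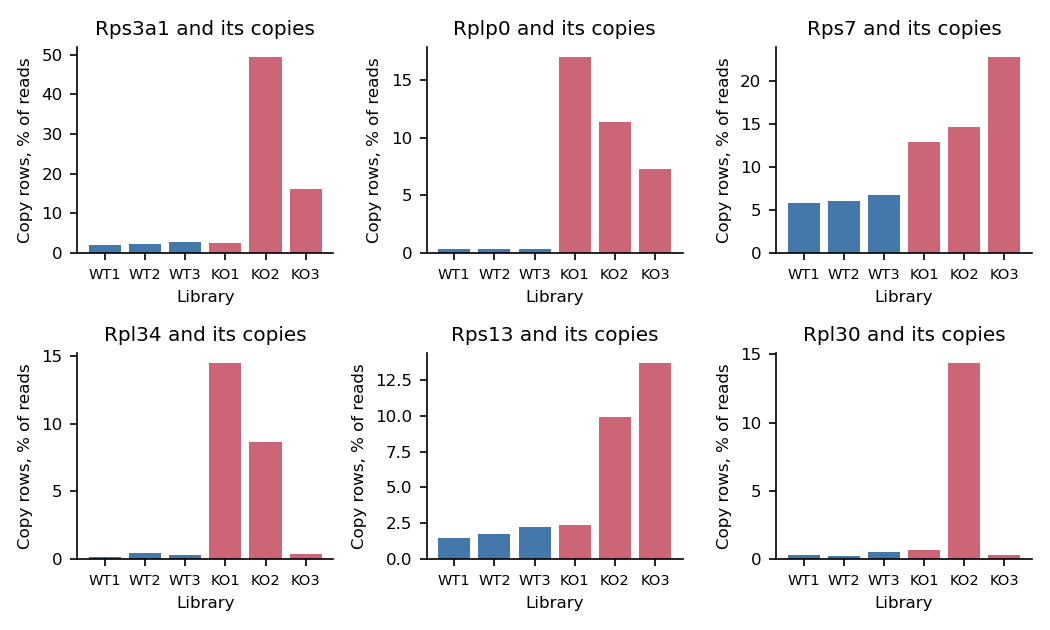
Share of the reads of a gene plus its near-identical copies that lay in the copy rows, in percent (y), in each library (x; blue WT, red KO), for the 6 genes with the largest difference between the group means. Each panel has its own scale from 0; the libraries with a high share differ from gene to gene, with KO2 and KO3 for Rps3a1 and Rps13, all KO libraries for Rplp0 and Rps7, KO1 and KO2 for Rpl34 and KO2 alone for Rpl30.

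**Figure D5:**
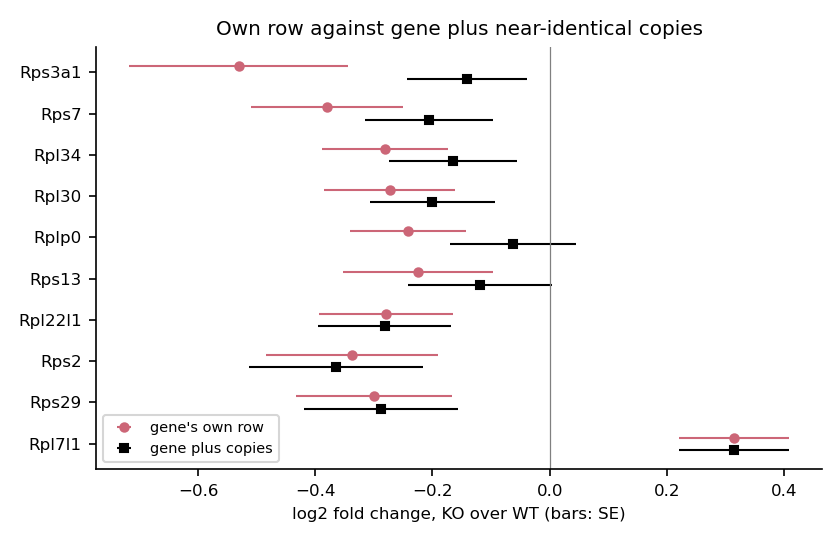
log2 fold change of KO over WT with its SE (x) for the 9 coding members with an unadjusted p under 0.05 and Rps13 (y), from the gene's own row (red circles) and from the gene summed with its copies (black squares). The squares lie nearer 0 than the circles for Rps3a1, Rps7, Rpl34, Rpl30, Rplp0 and Rps13. These genes had the largest rise of the copy share in KO and own rows below 0. Their sums therefore move upward by construction, which is no support on its own. The squares nearly coincide with the circles for Rpl22l1, Rps29 and Rpl7l1. For Rps2 the square lies further from 0, at -0.36 against -0.34.

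Paralogs, second genes that encode a variant of a ribosomal protein, were described beside their main copies. Rpl7l1, a paralog of Rpl7 with a role in making the large subunit, read 112, 115 and 127 FPKM in WT and 146, 155 and 139 in KO, so that every KO library lay above every WT library (0.31 ± 0.09; adjusted p = 0.062, limma). It was called with voom (adjusted p = 0.044), with the libraries rescaled to 1 sum (0.046), after quantile normalization (0.048), centred on the members' median (0.025) and without KO3 (0.038). Voom and the centring were chosen after the data were seen. Rpl7l1 was not called with the replicate block, a pseudocount of 0.1 FPKM, no filter, a mean of at least 5 FPKM or no trend. Nor was it called without WT1, WT2, WT3, KO1 or KO2, or when summed with its copies. Rpl7 itself stood at -0.17 ± 0.09 (adjusted p = 0.27, limma). Rpl22l1, the paralog of Rpl22, read 139, 148 and 158 in WT and 120, 140 and 107 in KO (-0.28 ± 0.11; adjusted p = 0.15, limma); Rpl22 stood at -0.13 ± 0.10. Rpl36al (-0.12 ± 0.12) and Rpl36a (-0.17 ± 0.13), and Rps27l (0.03 ± 0.12), a p53 target, and Rps27 (-0.00 ± 0.10), lay within their error of each other. The paralogs of Rpl3, Rpl10 and Rpl39, which are known from muscle and testis, were at most 0.50 FPKM in any library, while Rpl3 read 600 to 735 FPKM.

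Genes whose loss is known to impair blood formation did not pass the test. Rps19 read 66.2, 74.3 and 71.0 FPKM in WT and 79.3, 73.7 and 61.1 in KO (0.01 ± 0.11; adjusted p = 0.97, limma). Rps14 read 495, 548 and 557 in WT and 628, 579 and 460 in KO (0.05 ± 0.13; adjusted p = 0.84, limma). In both genes KO1 was the highest and KO3 the lowest library, and the groups overlapped. None of the 20 genes listed for Diamond-Blackfan anaemia and the 5q deletion passed the test, where 10.9% of all genes did and 0 of the 83 members, and their median was -0.09. Rpl5 and Rpl11, which bind Mdm2 together with 5S RNA when ribosome assembly fails, stood at -0.02 ± 0.12 and -0.20 ± 0.11; Rpl11 read 79.8 to 89.9 in WT and 64.2 to 78.9 in KO, without overlap. Fau and Gnb2l1 (Rack1), ribosomal proteins under other symbols, stood at -0.04 and -0.01.

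The oligopyrimidine tract was searched at the RefSeq transcription starts (GRCm38.p6) on the gene's strand, as a C and at least 4 further C or T that begin within 5 bases of the start. It was found in 29 of the 64 members with a start sequence (45.3%) and in 23.7% of the 8065 tested genes with one; on the opposite strand the shares were 14.1 and 25.5%. A start annotated a few bases off hides a tract, so these are shares of annotated starts. A few are shown from 10 bases before to 14 after the start, with the tract in capitals: Rpl35 (chr2:39005118-39005141, minus strand), Rpl28 (chr7:4792955-4792978, plus strand), Rps10 (chr17:27635231-27635254, minus strand) and Rps2 (chr17:24720053-24720076, plus strand).
Rpl35: ccgccCTTTCCTCTTTCTCTCgaa
Rpl28: tctcgtgtCTCTCTTTCCgtctcc
Rps10: gcgcacgCCCCTTCCTTTCCagcc
Rps2: gtcgagatctcgcgCTTCTTggag
The median log2 fold change was -0.07 for the 29 tested members with a tract and -0.09 for the 32 with a start but no tract. The Rps2 row, whose tract is the shortest of those shown, read 69.2, 66.1 and 73.2 FPKM in WT and 61.4, 62.8 and 42.6 in KO (-0.34 ± 0.15; adjusted p = 0.17, limma). Other TOP genes, among them elongation and initiation factors, had 0 of 16 called, against 10.9% of all genes, and a median of -0.05.

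Genes that build or regulate the ribosome were taken as comparison. Of 77 ribosome biogenesis genes tested, 5 rose and 0 fell (6.49% called, against 10.9% of all genes), with a median of 0.10. None of the 5 stayed past the test with the replicate block, without WT1, WT2, WT3, KO1 or KO2, or with eBayes without a trend, although the 4 named below kept their direction. Sbds, which frees new 60S subunits for use and is mutated in Shwachman-Diamond syndrome, read 55.9, 61.0 and 59.7 FPKM in WT and 86.4, 78.4 and 73.1 in KO (0.42 ± 0.10; adjusted p = 0.027, limma). Ppan (0.41 ± 0.09), Grwd1 (0.46 ± 0.11) and Gnl3, or nucleostemin (0.38 ± 0.10), were the other named rises. Among 36 initiation factors (11.1% called, against the same 10.9%), Eif2b4 rose and Eif4a1, Eif4g1 and Eif4g3 fell. Eif4g1, the scaffold of the cap-binding complex, read 37.9, 30.9 and 33.4 in WT and 17.4, 23.4 and 21.9 in KO (-0.69 ± 0.14; adjusted p = 0.014, limma); this call was lost without WT1 or WT3, and every one of the 4 was lost without WT1 or WT3.

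Among 22 genes of mTOR and LARP1 control, 1 rose and 4 fell (22.7% called, against 10.9% of all genes). Eif4ebp1, which holds back cap-dependent initiation until mTOR phosphorylates it, read 103, 97.0 and 115 FPKM in WT and 182, 183 and 150 in KO (0.70 ± 0.11; adjusted p = 0.0059, limma). Larp1, which binds TOP mRNAs, read 33.9, 29.3 and 28.5 in WT and 17.4, 21.6 and 20.4 in KO (-0.60 ± 0.12; adjusted p = 0.016, limma). Tsc2, an inhibitor of mTOR, was -0.69 ± 0.13 and Larp4b -0.59 ± 0.12, both past the test. Eif4ebp1 stayed past it in every setting tried, while the falls numbered 1 without WT1, 0 without WT2 and 1 without WT3. The p53 list had Cdkn1a, the cell-cycle inhibitor p21, higher (0.79 ± 0.16; adjusted p = 0.016, limma) and Pmaip1 lower (-0.70 ± 0.18; adjusted p = 0.041, limma) of 10, again beside 10.9% of all genes, and neither passed without WT1 or WT3. RNA polymerase I and III genes had 0 of 30 called and mitochondrial ribosomal proteins 0 of 78, where 10.9% of all genes were called, with medians of 0.07 and 0.07.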

How the data were processed

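The authors' deposited table holds FPKM values of 6 libraries, made from sorted cells with SMART-Seq v4 cDNA synthesis and Nextera XT, per the labels' protocols; neither marks strand. Tools listed in the submitters' processing notes, without roles, include the aligner TopHat2 2.1.1 and the counter HTSeq 0.6.1, with build mm10; the annotation, and how reads matching several loci were treated, are not given in the sources used here. The members and gene lists were chosen with earlier results of these data known.

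The comparison used limma 3.58.1 in R 4.3.3 (lmFit, eBayes with trend) on log2(FPKM + 1), over the 11371 genes that averaged 1 FPKM or more, two-sided, Benjamini-Hochberg adjusted over all of them, with calls at 0.05. The pseudocount shrinks the fold changes of weakly expressed genes. The fit was tested on simulated data, but the outcome is not given here. That run therefore says nothing here about the changes the fit can miss. Whole reads were recovered from the FPKM for 19368 of 19373 genes above 0, as multiples of what 1 read is worth (tolerance 1e-05); for 46 of 86 members the smallest length that gave whole reads was used, so their reads are lower bounds. Reads served for voom and for sums over copies, found with BLAST 2.17.0; voom and the sums were chosen after seeing the data. Replicate numbers did not pair libraries. Genes were named by rule: the highest and lowest members, paralogs, P stalk, 5S RNP, Rps19 and Rps14, proteins under other symbols, and up to 4 called genes of each comparison list by smallest p. Members described for a low unadjusted p, copies and start sequences were chosen after their values were seen. Some genes covered by this rule are not reported here, nor drawn in plots that label genes. No protein sequence was used. Python 3.11.15, numpy 2.4.6, pandas 2.3.3, Biopython 1.88 and matplotlib 3.10.9 were used.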

Additional observations from a re-analysis of the deposited data

How the results depend on the processing

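The count of 0 called members became 1 or 2 in a direction under some settings. Members called higher numbered 1 with the replicate block, a pseudocount of 0.1 FPKM and a mean of at least 5 FPKM (Rps3a3 in each), 1 with libraries rescaled to 1 common sum, quantile normalization and voom (Rpl7l1 in each), 2 with KO2 as the lone KO library, assumed to vary like WT (Rps3a2 and Rps3a3), and 2 when centred on the members' median; leaving out 1 library gave 0 to 2. Members called lower numbered 1 with rescaling and quantile normalization (Rps7), 1 with voom and 1 with KO2 alone (Rps3a1); leaving out 1 library gave 0 to 1. Over all genes 1240 were called, 805 with the replicate block, 588 without a filter, 826 with KO2 alone, 807 when centred on the members (580 higher and 227 lower, against 623 and 617) and 376 to 1669 without 1 library. Rescaling gave 1133 called genes over the whole table, quantile normalization 1309 and voom 1573. A pseudocount of 0.1 FPKM gave 1237 and a mean of at least 5 FPKM gave 1120. Beside these counts, the 1 or 2 member calls do not mark the members as called more often than other genes. The members' median was -0.14 to 0.02 without 1 library, positive without KO3, and 0.06 with KO2 alone. The difference in their share of FPKM, -0.39 percentage points, was -0.58 to -0.15 without 1 library and 0.00 with KO2 alone. The correlation of same-numbered deviations was -0.03, 0.05 and -0.12, so the numbers were not taken as pairs. None of the named genes called in either setting changed sign; of the values of named genes under the alternatives, 94 lost and 5 gained a call. With 3 libraries a group, the members' median interval half-width was 0.27 on the log2 scale. For a typical member a smaller difference could not be told from 0. The half-width is not the size at which members are called. Rpl7l1 at 0.31 and Rps7 at -0.38 did not pass the adjusted test. Settings with voom, sums over copies, KO2 alone and centring were chosen after seeing the data.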
